A study of Mus musculus with 3 samples.

Results

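The genes described here encode enzymes that attach ubiquitin to proteins or remove it. They were chosen by symbol: every gene whose symbol in the array's probe table starts with Ube2, Fbxl, Fbxo or Fbxw, or with Rnf, Trim or Usp followed by a digit. The rule found 236 genes, read by 242 probes, among the 16390 named genes on the array. They fall into 5 families, with 25 Ube2, 54 Rnf, 47 Trim, 61 F-box and 49 Usp genes. Of these, 14 now carry another symbol, used below with the array's own symbol given where the gene is described; Trim69 is counted among the Rnf genes because the array lists it as Rnf36.

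The study sorted 3 cell populations from IL-10 Venus mice, a reporter strain whose cells fluoresce, through the protein Venus, when they express the cytokine interleukin 10. One array each was hybridised with RNA from B220+ cells of the spleen (B220 is a surface form of CD45 on B cells), from Venus+ CD138hi cells of the spleen and from Venus+ CD138hi cells of the bone marrow; CD138, or syndecan-1, marks plasma cells. All 3 populations were freshly isolated from the same reporter genotype, the B220+ cells included, and the labels give no treatment, no age and no number of animals per sort. There was 1 array per population and no replicate, so no test was possible, and every difference below is a difference between arrays.

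Ubiquitin is activated by an E1 enzyme, passed to an E2 conjugating enzyme (the Ube2 genes) and placed on a substrate by an E3 ligase. Many Rnf and Trim proteins are RING-type E3 ligases, and F-box proteins are the substrate-binding subunits of SCF ligases, which are built on a cullin. Usp proteins are deubiquitinases, which take ubiquitin off again. Antibody-secreting cells rely on this system to clear misfolded proteins from the endoplasmic reticulum (ER), a process called ER-associated degradation. Some genes caught by the symbol rule have other main activities: Pan2 (Usp52) is part of a deadenylase, Usp6nl is a GTPase-activating protein, and Kdm2a (Fbxl11) and Kdm2b (Fbxl10) are histone demethylases with an F-box.

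Signals are spot intensities after subtraction of the mean of blank spots, scaled so that the median detected probe of each array is 25, and they have no absolute unit. A signal compares 1 probe between arrays and never 2 genes. The error after each log2 ratio is a spot error, built from the spread of blank spots and of the 24 copies of each positive control; it covers measurement on the array and not variation between mice or sorts. Where 3 signals follow each other they are those of B220+, spleen Venus+ and marrow Venus+ cells, in that order, and a pair of ratios in brackets gives spleen and then marrow Venus+ against B220+ cells, all on the log2 scale. Other background corrections are named where they change a call: normexp, a model-based correction that adds an offset, and subtraction of the local background around each spot. A gene is called higher or lower here where it was detected on both arrays and differed by at least 2-fold. Where only 1 of the arrays detected a gene, "at least" gives its signal there over the lowest signal detected on the other.

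Marker genes followed the labels in the main. The signals of 6 plasma cell markers summed to 697 in B220+, 12400 in spleen Venus+ and 20500 in marrow Venus+ cells, and those of 10 B cell markers to 30800, 11000 and 4520. Such sums weigh the brightest probes most. Gene by gene, every plasma cell marker measured against B220+ cells was higher and every B cell marker lower. Between the Venus+ populations, Prdm1 (8.72, 81.5 and 34.4) and Irf4 (321, 1130 and 688) were lower in marrow, against their sum, and Fcer2a (349, 62.4 and 166) was higher. Markers of other cells were present too: the 8 neutrophil markers were all detected in B220+ cells and summed to 5050 there, against 29.1 with 3 detected in spleen Venus+ cells and 213 with 7 detected in marrow Venus+ cells. The 8 T cell markers summed to 46.1, 1290 and 1600, in the Venus+ cells mostly from Cd28 (5.52, 528 and 477) and Cd247 (15.7, 637 and 1040). Cd3d read 7.89, 39.3 and 24.5. Cd3g and Cd3e were not detected in B220+ cells. In spleen and marrow Venus+ cells Cd3g read 55.7 and 8.95, and Cd3e read 7.55 and 17.8. Cd4, Cd8a and Lat were at no more than 15.0 on any array. The 6 monocyte and macrophage markers summed to 59.7, 136 and 275, in the Venus+ cells mostly from Cd68 (33.0, 111 and 241), with Cd14 detected on no array. The 5 erythroid markers summed to 349, 52.4 and 57.5, in B220+ cells mostly from Tfrc (208, 22.4 and 9.88). Alas2 (69.9, 10.2 and 15.5) and Car2 (57.1, 1.99 and 10.5) were also highest there. Klf1 (5.22, 5.38 and 6.35) and Epb42 (8.64, 12.4 and 15.3) were not. The 7 markers of basophils, mast cells and eosinophils summed to 27.3, 4700 and 6230, in the Venus+ cells nearly all from Prg2 (3.84, 4650 and 6080). Of the others, Mcpt8 read 17.5, 43.0 and 143, Cpa3 stayed at no more than 4.85, and Epx and Fcer1a were detected on no array. The part of these other cells in the results below was not tested. In sorted bulk RNA, fewer cells of a type and less RNA per cell cannot be told apart. The share of probes detected was 72.1%, 73.4% and 67.6%.

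Most of the enzymes were detected, and more of them were lower than higher in the Venus+ CD138hi cells. Of the 236 genes, the B220+ array detected 205, the spleen Venus+ array 204 and the marrow Venus+ array 187. Of all 16390 genes they detected 12165, 12422 and 11525. All 3 arrays found 182 of the enzymes and none found 25, beside 10769 and 3292 of all genes. In spleen Venus+ against B220+ cells, 200 were detected on both arrays, of which 26 were higher and 52 lower (13.0% and 26.0%, against 15.7% and 16.5% of all genes). In marrow Venus+ against B220+ cells, 24 were higher and 75 lower of 182 (13.2% and 41.2%, against 22.4% and 30.7% of all genes). Between marrow and spleen Venus+ cells, 9 were higher in marrow and 37 lower of 185 (4.86% and 20.0%, against 4.33% and 15.2% of all genes). Detection on a single array of each comparison was counted separately: 4 genes were found in spleen Venus+ but not B220+ cells and 5 the other way (4.91% and 3.34% of all genes), 5 in marrow Venus+ but not B220+ cells and 23 the other way (4.34% and 8.25%), and 2 in marrow but not spleen Venus+ cells and 19 the other way (1.06% and 6.53%).

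The median of the enzymes lay below that of the array in each comparison. Their median log2 ratio was -0.31 in spleen Venus+ against B220+ cells, -0.61 in marrow Venus+ against B220+ cells and -0.37 in marrow against spleen Venus+ cells, where the medians of all genes were -0.02, -0.24 and -0.17. The first pair of comparisons shares the B220+ array, and all 3 share arrays with each other. Each all-gene median moved with the scaling, to 0.05 in the second and 0.16 in the third when arrays were scaled on the probes detected on all 3, and to 0.34 in the first when background was read from spots without a probe. The enzymes' median was below the all-gene median under each of the 11 alternatives, with differences of -0.30 to -0.15, -0.38 to -0.17 and -0.20 to -0.07. The split of calls moved more: spots without a probe gave 33 higher and 30 lower in the first comparison, normexp background correction 3 higher and 29 lower, and scaling on shared probes 12 higher and 17 lower in the third.

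**Figure D1:**
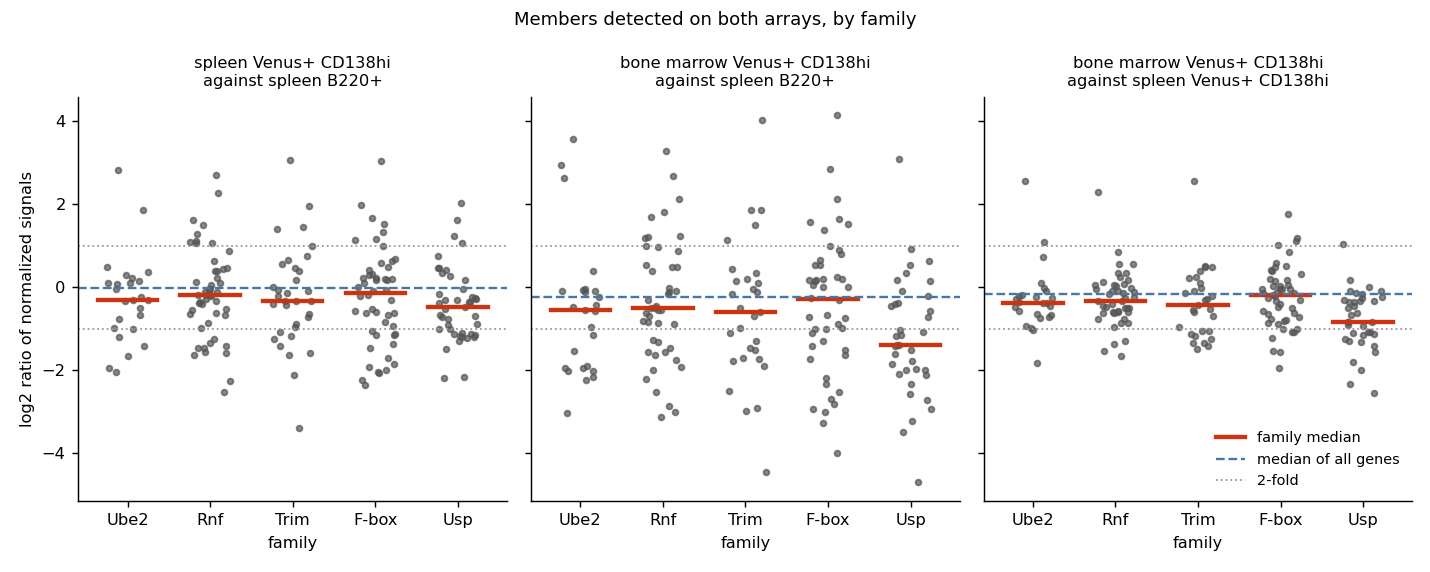
Log2 ratios of normalized signals (vertical axis) of the members detected on both arrays, by family, in the 3 comparisons. Each point is 1 gene, the red bar the family median, the dashed line the median of all genes and the dotted lines 2-fold; the Usp family lies lowest in the middle panel, with a median of -1.39 where all genes have -0.24.

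Among the 182 enzymes detected on all 3 arrays, 110 (60.4%) had their highest signal in B220+ cells, compared with 46.4% of all genes. For 42 (23.1%) the signal was at least 2-fold lower on both Venus+ arrays, compared with 14.4% of all genes. Only 15 (8.24%) were at least 2-fold higher on both, compared with 14.7% of all genes: Ube2j1, Ube2e2, Rnf26, Rnf125, Rnf180, Rnf185, Rnf32, Trim41, Trim15, Trim52, Fbxo17, Fbxo10, Fbxl20, Fbxw17 and Usp48.

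**Figure D2:**
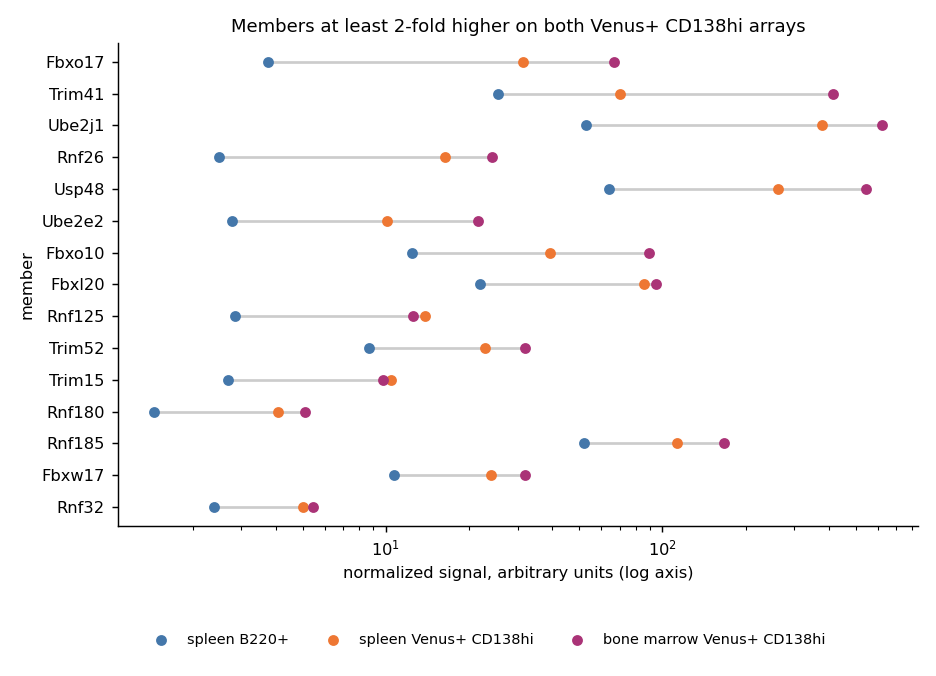
Normalized signal (log axis, arbitrary units) on each array of the 15 members at least 2-fold higher on both Venus+ CD138hi arrays than in B220+ cells, ordered by their marrow ratio. Each row is 1 gene, the points are the arrays and the grey line spans them; in every row the B220+ point lies at the left, as in Ube2j1 with 52.9 against 376 and 622.

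Promoters were compared for the members of that group. RefSeq's promoter windows on GRCm38.p6 run from 250 bases before the annotated start site to 50 after it, and 180 of the 236 genes had at least 1. The hexamer ACGTGG, the core bound by XBP1, the transcription factor that drives ER expansion in plasma cells, was searched on both strands; it shares letters with the longer ER stress element, which ends in CCACG. It lay in 8.31% of all 32851 windows and in 8.58% of the 233 windows of members. Of the 15 genes higher on both Venus+ arrays, 14 had a window and 5 (35.7%) held the hexamer, against 9.40% of all genes with a window; of the 42 lower on both, 28 had a window and 3 (10.7%) held it. The set was picked by its signals and is small, and a match is a description of letters, not evidence of binding. The ER stress element itself (CCAAT, 9 bases of any kind, then CCACG, both strands) was in none of the 14 and in 0.119% of all windows. The 5 windows are printed 5′ to 3′ on the gene's strand, with the hexamer or its reverse complement in capitals, because they belong to members whose signals are given next.
Ube2j1 promoter, chr4:33031130-33031429 (plus strand): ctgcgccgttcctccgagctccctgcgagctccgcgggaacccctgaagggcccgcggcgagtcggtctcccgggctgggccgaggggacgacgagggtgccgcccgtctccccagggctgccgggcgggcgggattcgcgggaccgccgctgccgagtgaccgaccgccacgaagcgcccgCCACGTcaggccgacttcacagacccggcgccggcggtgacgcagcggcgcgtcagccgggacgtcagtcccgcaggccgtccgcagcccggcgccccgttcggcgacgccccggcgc
Ube2e2 promoter, chr14:18893722-18894021 (minus strand): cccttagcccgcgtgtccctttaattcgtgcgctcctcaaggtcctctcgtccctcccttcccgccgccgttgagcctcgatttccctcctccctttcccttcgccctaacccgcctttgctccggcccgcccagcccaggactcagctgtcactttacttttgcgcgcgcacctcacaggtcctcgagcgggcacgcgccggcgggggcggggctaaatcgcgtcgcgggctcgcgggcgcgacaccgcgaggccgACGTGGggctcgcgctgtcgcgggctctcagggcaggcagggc
Usp48 promoter, chr4:137593922-137594221 (plus strand): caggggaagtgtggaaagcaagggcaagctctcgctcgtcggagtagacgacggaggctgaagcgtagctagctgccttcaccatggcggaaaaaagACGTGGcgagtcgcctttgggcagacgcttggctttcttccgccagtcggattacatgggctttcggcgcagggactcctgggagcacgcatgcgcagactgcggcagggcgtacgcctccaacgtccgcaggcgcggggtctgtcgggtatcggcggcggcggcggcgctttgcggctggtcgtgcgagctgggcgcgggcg
Fbxo17 promoter, chr7:28716532-28716831 (plus strand): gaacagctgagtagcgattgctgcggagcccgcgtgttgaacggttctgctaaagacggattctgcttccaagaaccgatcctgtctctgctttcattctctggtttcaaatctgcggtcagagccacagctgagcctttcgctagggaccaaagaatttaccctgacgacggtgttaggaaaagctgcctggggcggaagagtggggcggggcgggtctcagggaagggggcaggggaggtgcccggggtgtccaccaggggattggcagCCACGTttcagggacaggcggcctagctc
Fbxl20 promoter, chr11:98149567-98149866 (minus strand): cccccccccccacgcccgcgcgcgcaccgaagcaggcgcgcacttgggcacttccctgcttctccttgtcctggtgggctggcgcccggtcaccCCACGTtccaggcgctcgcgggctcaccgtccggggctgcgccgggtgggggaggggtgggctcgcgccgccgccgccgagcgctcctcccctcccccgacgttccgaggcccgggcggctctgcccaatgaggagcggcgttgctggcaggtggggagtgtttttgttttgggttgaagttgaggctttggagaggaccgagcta

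The conjugating enzymes were all detected on all 3 arrays. Of the 25 Ube2 genes, 2 were higher and 6 lower in spleen Venus+ than in B220+ cells, 3 higher and 10 lower in marrow Venus+ than in B220+ cells, and 2 higher and 2 lower in marrow than in spleen Venus+ cells. The shares lower against B220+ cells were 24.0% and 40.0%, beside 16.5% and 30.7% of all genes, while the 2 of 25 lower between the Venus+ populations compare with 15.2% of all genes. Their medians were -0.30, -0.55 and -0.38.

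Both members of the Ube2j pair, the tail-anchored E2 enzymes of the ER membrane, were high in marrow Venus+ cells, but the spleen separated them. Ube2j1 read 52.9 in B220+, 376 in spleen Venus+ and 622 in marrow Venus+ cells, log2 ratios to B220+ cells of 2.83 ± 0.14 and 3.56 ± 0.13. Ube2j2 gave 54.3, 57.3 and 335, so that it was level between the spleen populations (0.08 ± 0.14) and 2.63 ± 0.13 above B220+ cells in marrow. Ube2j2 thus had the largest log2 ratio of any Ube2 gene between marrow and spleen Venus+ cells, at 2.55 ± 0.11. Each of these calls for Ube2j1 and Ube2j2 held under normexp and local background.

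Ube2e2, whose B220+ signal was near the detection limit, read 2.78, 10.1 and 21.5, ratios of 1.86 ± 0.39 and 2.95 ± 0.38 to B220+ cells. Its relatives went other ways: Ube2e1 read 546, 236 and 142, and Ube2e3 read 53.5, 74.4 and 69.8. The ratios of Ube2e2 were under 2-fold with normexp background (0.41 and 0.71), and between marrow and spleen Venus+ cells its sign turned with local background, from 1.09 to -0.80.

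On the low side, Ube2d1, a promiscuous E2 that serves many RING ligases, read 42.8 in B220+, 10.3 in spleen Venus+ and 5.21 in marrow Venus+ cells, ratios of -2.05 ± 0.18 and -3.04 ± 0.35. Ube2w, an E2 that ubiquitinates protein amino termini, read 247, 63.8 and 52.8 (-1.95 ± 0.14 and -2.23 ± 0.14). Both were high in B220+ cells and low in each Venus+ population. The RAD6 homologues Ube2a and Ube2b, E2 enzymes of DNA damage tolerance and histone H2B ubiquitination, were lower in marrow Venus+ cells, with a different step in the spleen. Ube2b was lower on both Venus+ arrays, at 158 and 114 against 427. Ube2a read 88.4 and 71.1 in the spleen populations and 19.8 in marrow, a ratio of -1.84 ± 0.14 between the Venus+ populations and the lowest of the family there.

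Conjugating enzymes of mitosis differed little: Ube2c and Ube2s, the E2 pair of the anaphase-promoting complex, read 151, 167 and 146, and 312, 302 and 234. Neither passed 2-fold in any comparison. The heterodimer Ube2n and Ube2v1, which builds the non-degradative chains of NF-kappaB signalling, read 27.6, 29.8 and 19.9, and 201, 233 and 191, also within 2-fold.

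The Rnf family was mixed, and its share of genes lower in marrow Venus+ than in B220+ cells was near that of the array. Of 49 Rnf genes detected on both spleen arrays, 9 were higher and 10 lower in Venus+ cells; in marrow Venus+ against B220+ cells the counts were 8 and 14 of 45, and in marrow against spleen Venus+ cells 1 and 4 of 45. The shares lower were 20.4%, 31.1% and 8.89%, beside 16.5%, 30.7% and 15.2% of all genes, and in marrow Venus+ against B220+ cells the family's median differed from that of all genes by -0.26, which turned to 0.14 with local background.

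The ER membrane ligases Rnf5 and Rnf185, close relatives that act in ER-associated degradation, were both higher in marrow Venus+ cells. Rnf5 read 186 in B220+, 243 in spleen Venus+ and 435 in marrow Venus+ cells, ratios of 0.39 ± 0.14 and 1.23 ± 0.13. Rnf185 read 51.9, 113 and 167, ratios of 1.12 ± 0.14 and 1.68 ± 0.13. Spleen Venus+ cells lay between the other populations for each. These were moderate ratios that depended on background: the marrow ratio of Rnf5 was 0.68 with normexp and 0.60 with local background, and the spleen ratio of Rnf185 was 0.63 and -0.13.

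Rnf26 and Rnf125 had larger ratios. Rnf26, a multipass ligase of the ER membrane that positions endosomes, read 2.49 in B220+, 16.3 in spleen Venus+ and 24.1 in marrow Venus+ cells, ratios of 2.71 ± 0.42 and 3.27 ± 0.42. Rnf125, a ligase that acts on RNA sensors of the innate immune system, read 2.85, 13.8 and 12.5 (2.28 ± 0.38 and 2.13 ± 0.39). Both were near the detection limit in B220+ cells, and with normexp no ratio of either passed 2-fold (0.59 and 0.77 for Rnf26, 0.51 and 0.51 for Rnf125). Rnf25, a ligase also called AO7, stood apart by organ, with 13.1 and 17.0 in the spleen and 83.9 in marrow, 2.30 ± 0.14 between the Venus+ populations; no local-background value was obtained for it in marrow.

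Ligases lower on both Venus+ arrays were led by Rnf130 and Rnf2. Rnf2, the catalytic subunit of Polycomb repressive complex 1 that ubiquitinates histone H2A, read 259 in B220+, 53.8 in spleen Venus+ and 29.4 in marrow Venus+ cells, ratios of -2.27 ± 0.14 and -3.14 ± 0.14. Rnf111, also called Arkadia, a ligase of the TGF-beta pathway, read 241, 94.7 and 30.0, the last being -1.66 ± 0.13 against spleen Venus+ cells. For both, B220+ cells were high, spleen Venus+ cells intermediate and marrow Venus+ cells low. Rnf130, known as Goliath, read 481, 83.5 and 66.1 (-2.53 ± 0.14 and -2.86 ± 0.13), but with local background the sign turned to 1.79 and 1.66, so its direction is not settled. Rnf144a (Rnf144), an RBR-type ligase, was detected in B220+ cells alone, with a signal of 19.5, at least 11.2-fold above spleen and 8.28-fold above marrow Venus+ cells.

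The Trim family, RING ligases with B-box and coiled-coil domains, many of them antiviral, spanned log2 ratios from -4.47 to 4.03 in marrow Venus+ against B220+ cells. Of 33 Trim genes detected on both spleen arrays, 4 were higher and 8 lower in Venus+ cells; of 29 in each of the other comparisons, 5 were higher and 12 lower in marrow Venus+ than in B220+ cells, and 1 higher and 9 lower in marrow than in spleen Venus+ cells. The shares lower were 24.2%, 41.4% and 31.0%, beside 16.5%, 30.7% and 15.2% of all genes, and with normexp 15.2%, 31.0% and 3.45%, beside 10.1%, 19.8% and 2.77%. Of the 47 Trim genes, 10 were not detected on any array, beside 3292 of all 16390 genes. They were Trim9, Trim29, Trim31, Trim42, Trim54, Trim56, Trim61, Trim63, Trim66 and Trim67.

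Trim59 and Trim41 were the extremes. Trim59, a membrane-anchored ligase, read 618 in B220+, 58.5 in spleen Venus+ and 27.9 in marrow Venus+ cells, ratios of -3.40 ± 0.14 and -4.47 ± 0.15. Trim41, a ligase of protein kinase C and viral proteins, had 25.4, 70.0 and 414, ratios of 1.46 ± 0.14 and 4.03 ± 0.14. Trim41 was brightest in marrow, 2.57 ± 0.11 above spleen Venus+ cells, while Trim59 was brightest in B220+ cells. The directions of both held with normexp and with local background, and the marrow calls against B220+ cells with them.

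Other Trim genes followed several patterns. Trim62, a ligase of CARD9 signalling, read 1.80 in B220+ cells, near the detection limit. In spleen Venus+ cells it read 15.0, a ratio of 3.06 ± 0.56. It was not detected in marrow, at least 6.38-fold lower there than in spleen Venus+ cells. Trim15 read 2.68, 10.4 and 9.73, and Trim52 read 8.70, 22.8 and 31.8. Both were higher in each Venus+ population. Trim24 and Trim33, transcriptional cofactors of the TIF1 group, read 265, 136 and 92.3, and 294, 125 and 85.7, both highest in B220+ cells; their relative Trim28, the corepressor KAP1, read 87.3 and 97.8 in the spleen and 44.4 in marrow.

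The F-box family's medians were the nearest of the 5 families to those of all genes, at -0.13, -0.28 and -0.18 beside -0.02, -0.24 and -0.17. Of 50 F-box genes detected on both spleen arrays, 7 were higher and 14 lower in Venus+ cells; in marrow Venus+ against B220+ cells the counts were 7 and 16 of 46, and in marrow against spleen Venus+ cells 4 and 8 of 49. The shares lower were 28.0%, 34.8% and 16.3%, beside 16.5%, 30.7% and 15.2% of all genes. Of the 3 subfamilies, named by the domain that binds the substrate, 6 of 12 Fbxl genes (leucine-rich repeats), 10 of 26 Fbxo genes (other domains) and 0 of 8 Fbxw genes (WD40 repeats) were lower in marrow Venus+ than in B220+ cells. The 8 leave out Fbxw4, which was lower in the spleen and not detected in marrow, and the difference between subfamilies was not tested. The subfamilies were counted by the array's symbols, so an F-box gene listed under another kind of symbol is in none of these counts.

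Fbxo17, an F-box protein of the subgroup that recognises glycoproteins, had the largest F-box ratios, reading 3.75 in B220+, 31.2 in spleen Venus+ and 66.7 in marrow Venus+ cells (3.05 ± 0.29 and 4.15 ± 0.29). Fbxo10, which targets BCL2 for degradation, read 12.4, 39.2 and 89.3 (1.67 ± 0.16 and 2.85 ± 0.16). Fbxl20, which targets a protein of neurotransmitter release, read 21.8, 86.0 and 95.1 (1.98 ± 0.14 and 2.13 ± 0.14). All 3 were low in B220+ cells, and the log2 ratios of Fbxo17 and Fbxo10 between marrow and spleen Venus+ cells were 1.10 ± 0.12 and 1.19 ± 0.12. With normexp the spleen ratio of Fbxo17 was 0.86. Fbxo44, of the same subgroup as Fbxo17, was not detected in B220+ cells and read 18.8 and 18.2 in the Venus+ populations, at least 14.0-fold and 13.5-fold above the lowest detected B220+ signal.

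The lowest F-box ratios in marrow belonged to Fbxo33, Fbxo11 and Fbxl5. Fbxo33 read 221 in B220+, 53.8 in spleen Venus+ and 13.9 in marrow Venus+ cells (-2.04 ± 0.14 and -3.99 ± 0.18). Fbxo11, the F-box protein that targets the germinal centre factor BCL6, read 284, 86.1 and 29.3 (-1.72 ± 0.14 and -3.27 ± 0.14). Fbxl5, the iron sensor that degrades iron regulatory protein, read 285, 71.2 and 35.1 (-2.00 ± 0.14 and -3.02 ± 0.14). Each was highest in B220+ cells, intermediate in spleen and lowest in marrow Venus+ cells. Kdm2a (Fbxl11) read 768, 353 and 151 and Kdm2b (Fbxl10) read 71.0, 62.6 and 21.3, so that Kdm2a was lower on both Venus+ arrays and Kdm2b in marrow alone. Fbxw4 was the largest loss of detection, at 44.2, 8.58 and not detected, at least 18.8-fold below B220+ cells in marrow.

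Fbxw7, the substrate receptor for cyclin E, MYC and NOTCH, went the other way in the spleen, with 52.9, 134 and 76.8, ratios of 1.34 ± 0.14 and 0.54 ± 0.14. Fbxw8, the substrate receptor of cullin 7, read 15.7, 45.0 and 24.7, also highest in spleen Venus+ cells. Fbxw13, Fbxw14, Fbxw17 and Fbxw20 (Fbxw12) belong to a cluster of near-identical mouse genes whose probes may share targets, so their values are uncertain: Fbxw13 read 11.2, 14.0 and 20.8, Fbxw17 read 10.7, 24.0 and 31.8, Fbxw14 was not detected in B220+ cells and read 8.99 and 12.8, and Fbxw20 was not detected on any array.

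Of the 5 families, the Usp deubiquitinases had the medians furthest from those of all genes under the processing used here. Of 43 Usp genes detected on both spleen arrays, 4 were higher and 14 lower in Venus+ cells (9.30% and 32.6%, beside 15.7% and 16.5% of all genes). In marrow Venus+ against B220+ cells, 1 was higher and 23 lower of 37 (2.70% and 62.2%, beside 22.4% and 30.7% of all genes). In marrow against spleen Venus+ cells 1 was higher and 14 lower of 37 (2.70% and 37.8%, beside 4.33% and 15.2% of all genes). The family's median was -1.39 in marrow Venus+ against B220+ cells, a difference of -1.15 from that of all genes. Of the 37 detected everywhere, 27 (73.0%) were highest in B220+ cells and 30 lowest in marrow. The difference between the medians was below 0 under each of the 11 alternatives but smaller with local background (-0.53) and normexp (-0.62), where 16 of 36 and 10 of 37 were lower. With normexp that share was 27.0%, beside 19.8% of all genes. The Ube2 family's difference with normexp was -0.67, below that of the Usp family, and the Trim family's share given above was larger than 27.0%.

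**Figure D3:**
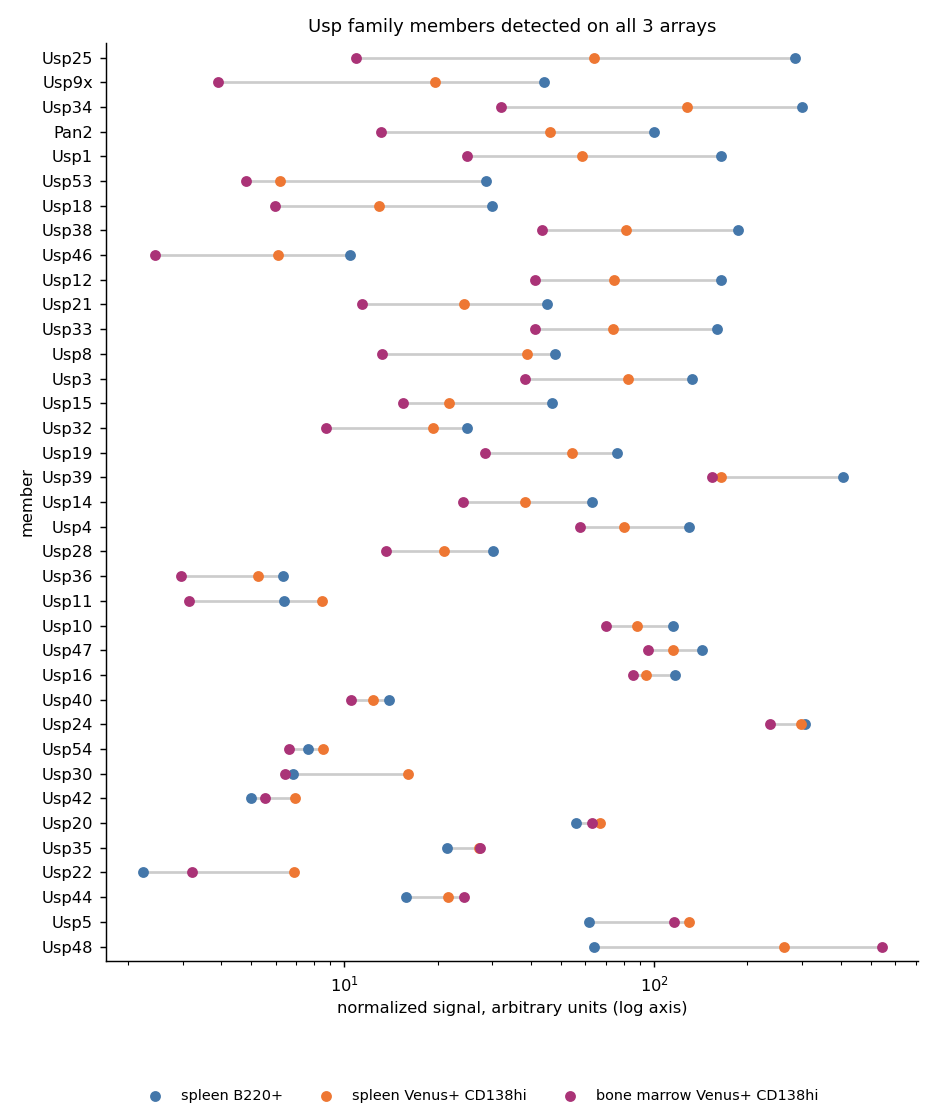
Normalized signal (log axis, arbitrary units) on each array of the 37 Usp family members detected on all 3, ordered by their ratio of marrow Venus+ to B220+ cells, lowest at the top. Each row is 1 gene and the grey line spans its arrays; in 27 rows the B220+ point lies furthest right, and Usp48 at the bottom runs the other way, from 64.0 to 542.

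The largest log2 ratio among the members belonged to a deubiquitinase. A deubiquitinase of ER-associated degradation and of TRAF signalling, Usp25 read 285 in B220+, 63.7 in spleen Venus+ and 10.9 in marrow Venus+ cells, ratios of -2.16 ± 0.14 and -4.71 ± 0.20. Usp9x, a large deubiquitinase that stabilises MCL1 among many substrates, read 44.2, 19.6 and 3.90 (-1.17 ± 0.15 and -3.50 ± 0.46). Usp34, which acts on axin in WNT signalling, read 300, 128 and 32.1 (-1.23 ± 0.14 and -3.22 ± 0.14). In all 3 the marrow Venus+ array was lowest, with ratios of -2.55 ± 0.19, -2.33 ± 0.45 and -1.99 ± 0.12 to spleen Venus+ cells. With normexp the ratio of Usp25 to spleen Venus+ cells was -0.96. Pan2 (Usp52), the deadenylase subunit, read 100, 46.1 and 13.1 and followed the same order.

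Usp1, the partner of UAF1 that removes ubiquitin from FANCD2 and PCNA, read 164, 58.5 and 24.8 (-1.49 ± 0.14 and -2.73 ± 0.15). Usp7, which stabilises MDM2 and other nuclear proteins, read 30.3 and 15.1 in the spleen populations and was not detected in marrow, at least 12.9-fold below B220+ cells. Usp53 read 28.6, 6.21 and 4.80, the lowest spleen ratio of the family at -2.20 ± 0.25. Usp12, Usp33, Usp38 and Usp39 were also lower on both Venus+ arrays, with spleen ratios between -1.31 and -1.13 and marrow ratios between -2.11 and -1.40.

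Usp48 was the one Usp gene higher on both Venus+ arrays. A nuclear deubiquitinase that acts on RELA and on histone H2A, it read 64.0 in B220+, 262 in spleen Venus+ and 542 in marrow Venus+ cells (2.03 ± 0.14 and 3.08 ± 0.13). Its calls against B220+ cells held with normexp (1.40 and 2.18) and local background (1.73 and 2.96). Usp5, which recycles free ubiquitin chains, read 61.5, 130 and 116, a spleen ratio of 1.07 ± 0.14 that turned to -0.59 with local background. Usp22, of the SAGA coactivator complex, and Usp30, a mitochondrial deubiquitinase, peaked in spleen Venus+ cells, at 6.85 against 2.23 and 3.23, and at 16.0 against 6.83 and 6.42. Usp22 was near the detection limit on the B220+ and marrow arrays. Its ratios were 1.62 ± 0.49 in spleen Venus+ against B220+ cells and -1.08 ± 0.57 in marrow against spleen Venus+ cells. Usp2 was detected in marrow Venus+ cells alone, with 16.7, at least 12.4-fold above B220+ and 9.62-fold above spleen Venus+ cells.

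Taken by function instead of family, the ER-associated degradation enzymes held genes of both directions. Of 14 members on the list, 2 were higher (14.3%, beside 15.7% of all genes) and 2 lower in spleen Venus+ than in B220+ cells, and 1 of 13 was higher and 1 lower in marrow than in spleen Venus+ cells. In the other comparison 13 were detected in both marrow Venus+ and B220+ cells; 4 were higher (Ube2j1, Ube2j2, Rnf5 and Rnf185) and 3 lower (Usp25, Usp19 and Rnf139), a share of 30.8% higher beside 22.4% of all genes; with normexp 2 were higher. Rnf139, the sterol-sensitive ligase TRC8, read 154, 57.5 and 40.7 (-1.42 ± 0.14 and -1.92 ± 0.14), and Usp19, an ER-anchored deubiquitinase, read 75.6, 54.2 and 28.4. The soluble E2 enzymes of the pathway, Ube2g1 (132, 83.0 and 88.4) and Ube2g2 (64.0, 79.0 and 60.2), passed 2-fold in no comparison. The sugar-binding F-box proteins Fbxo2 (43.9, 49.2 and 50.1) and Fbxo6, listed on the array as Fbxo6b (118, 82.7 and 59.3), did not pass it either. The list's median relative to all genes was 0.09 in marrow Venus+ against B220+ cells and turned to -0.23 with normexp.

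The other proteins of the same pathway were higher in Venus+ cells in about as many cases as not. Of 21 listed ER-associated degradation partners, all detected, 10 were higher and 0 lower in spleen Venus+ than in B220+ cells. In marrow Venus+ against B220+ cells 11 were higher and 1 lower. The shares higher were 47.6% and 52.4%, beside 15.7% and 22.4% of all genes, with medians of 0.93 and 1.17. With normexp 7 and 8 were higher, beside 410 of 11618 and 577 of 10813 genes on the array. None passed 2-fold between marrow and spleen Venus+ cells. Derl3, a derlin of the retrotranslocation channel, read 15.8 in B220+, 2370 in spleen Venus+ and 2800 in marrow Venus+ cells (7.23 ± 0.15 and 7.47 ± 0.15). Sel1l, the scaffold of the HRD1 ligase, read 9.88, 276 and 406 (4.80 ± 0.17 and 5.36 ± 0.16). Its ligase Syvn1, or HRD1, read 152, 227 and 114, within 2-fold throughout, and Herpud2 read 172, 90.4 and 76.9. The other derlins differed less: Derl1 read 109, 294 and 373, and Derl2, at 200, 355 and 399, stayed under 2-fold.

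Most interferon-induced enzymes were lower in the Venus+ cells, and lowest in marrow. Of 12 listed members, Trim56 was not detected on any array. Of the other 11, 6 were lower and 0 higher in spleen Venus+ than in B220+ cells, 8 lower and 0 higher in marrow Venus+ than in B220+ cells, and in marrow against spleen Venus+ cells 6 lower and 0 higher (54.5%, 72.7% and 54.5%, beside 16.5%, 30.7% and 15.2% of all genes). The medians were -1.08, -1.73 and -1.06. With normexp 3, 5 and 1 were lower, beside 1174 of 11618, 2142 of 10813 and 315 of 11352 genes on the array. The summed neutrophil markers given above were also highest in B220+ cells, as were 7 of the 8 markers, with Mpo (2.22, not detected and 29.8) the exception; their part in these values was not tested.

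Trim25, the ligase of the RNA sensor RIG-I, read 581 in B220+, 219 in spleen Venus+ and 77.1 in marrow Venus+ cells (-1.41 ± 0.14 and -2.91 ± 0.13). Trim30a (Trim30), a mouse-specific regulator of innate signalling, read 276, 89.0 and 35.0 (-1.63 ± 0.14 and -2.98 ± 0.14). Trim21, the cytosolic antibody receptor, read 67.5, 31.9 and 12.0 (-1.08 ± 0.14 and -2.50 ± 0.19). All 3 stepped down from B220+ cells through spleen to marrow Venus+ cells, though the spleen ratio of Trim21 was under 2-fold with normexp (-0.70) and local background (-0.91). Usp18, the deubiquitinase that removes ISG15, read 30.0, 12.9 and 5.95, and Ube2l6, the E2 enzyme that attaches it, read 55.8, 17.8 and 13.7. Trim26 read 112, 70.6 and 33.8 and Trim14 read 37.1, 29.3 and 11.5, each lower only in marrow. Fbxo39 read 195, 87.6 and 72.8.

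The remaining 3 measured genes of the list, Rnf135, Trim69 and Trim34a, passed 2-fold in no comparison. Trim34a (Trim34) has 2 probes that disagree: the one used here, whose mean log2 signal over the arrays was the higher, read 7.87, 7.34 and 8.72, while the other read 29.6 in B220+ cells and 6.02 in spleen Venus+ cells and was not detected in marrow. Trim30a and Trim34a lie in families of near-identical mouse genes, so their probes may also read relatives.

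**Figure D4:**
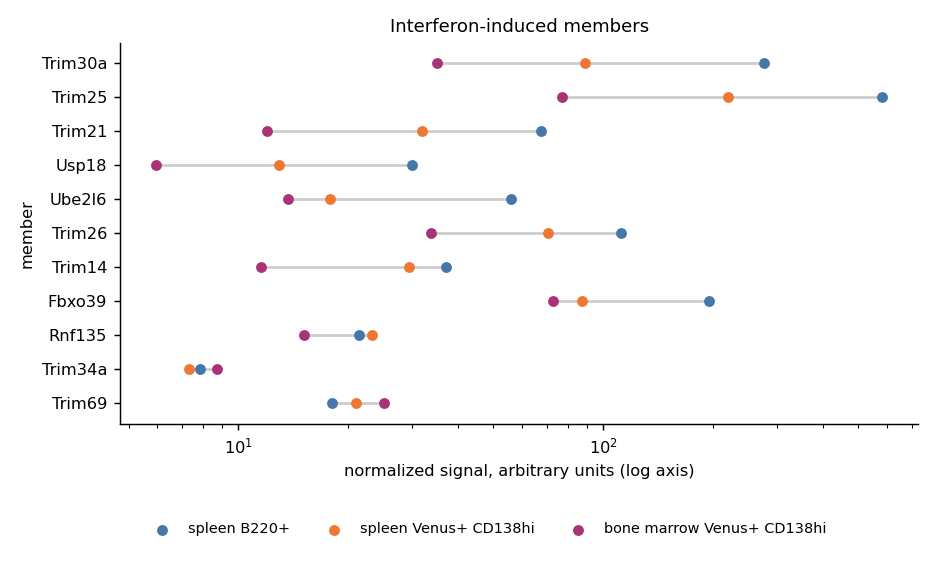
Normalized signal (log axis, arbitrary units) of the 11 detected interferon-induced members on each array, ordered by their ratio of marrow Venus+ to B220+ cells, lowest at the top. Each row is 1 gene and the grey line spans its arrays; in the upper 8 rows the marrow point lies furthest left and the B220+ point furthest right, as in Trim25 with 77.1 and 581.

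The interferon-stimulated response element, searched on both strands as GAAA, 2 bases of any kind and GAAA again, was in the promoter windows of 4 of the 10 listed genes that had one (Trim21, Trim26, Trim30a and Trim34a), a share of 40.0% beside 3.99% of all genes with a window. Among all members 11 of 180 genes held it (6.11%). Of the 28 genes lower on both Venus+ arrays that had a window, 2 held it, and of the 14 higher on both none did. Being interferon-induced is what placed genes on this list, so the share describes the list and is no result of the arrays. The windows of the 3 genes called lower in marrow are shown with the element, or its reverse complement, in capitals; in Trim21 and Trim26 a pair of matches overlap.
Trim21 promoter, chr7:102565433-102565732 (minus strand): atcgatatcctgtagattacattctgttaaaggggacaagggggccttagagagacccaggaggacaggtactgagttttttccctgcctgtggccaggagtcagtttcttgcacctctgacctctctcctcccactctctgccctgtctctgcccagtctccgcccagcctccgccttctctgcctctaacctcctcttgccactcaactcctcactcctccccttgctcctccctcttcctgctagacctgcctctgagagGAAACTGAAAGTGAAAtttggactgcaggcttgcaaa
Trim26 promoter, chr17:36836896-36837195 (plus strand): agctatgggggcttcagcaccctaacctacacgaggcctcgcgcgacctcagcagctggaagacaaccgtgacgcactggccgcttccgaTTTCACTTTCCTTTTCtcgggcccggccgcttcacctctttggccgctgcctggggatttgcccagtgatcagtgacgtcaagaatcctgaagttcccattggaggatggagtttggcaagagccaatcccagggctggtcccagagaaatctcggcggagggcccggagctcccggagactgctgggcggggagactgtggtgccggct
Trim30a promoter, chr7:104465144-104465443 (minus strand): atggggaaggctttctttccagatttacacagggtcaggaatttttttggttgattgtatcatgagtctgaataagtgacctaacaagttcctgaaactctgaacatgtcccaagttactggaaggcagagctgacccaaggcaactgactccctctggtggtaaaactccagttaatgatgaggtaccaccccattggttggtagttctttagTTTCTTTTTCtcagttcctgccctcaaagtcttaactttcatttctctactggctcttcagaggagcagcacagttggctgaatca

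Most enzymes listed for chromatin and DNA damage were lower in marrow Venus+ than in B220+ cells. Of 27 listed members, 9 were lower and 2 higher in spleen Venus+ than in B220+ cells, 17 of 26 (65.4%) lower and 1 higher in marrow Venus+ than in B220+ cells, and 12 of 26 lower and 1 higher in marrow than in spleen Venus+ cells. The shares lower were 33.3%, 65.4% and 46.2%, beside 16.5%, 30.7% and 15.2% of all genes. The medians were -0.52, -1.54 and -0.84. Rnf2, Ube2a, Ube2b, Usp1, Kdm2a and Fbxo11, described above, are among those lower in marrow. With normexp the counts of lower genes were 9, 11 and 1, shares of 33.3%, 42.3% and 3.85% beside 10.1%, 19.8% and 2.77% of all genes. Rnf168, which ubiquitinates histone H2A at DNA breaks, read 26.8, 18.2 and 10.6, and Usp3, which removes ubiquitin from histone H2A, read 132, 82.3 and 38.2. Rnf20 and Rnf40, partners in the ligase for histone H2B, differed from each other: Rnf20 read 61.7, 95.8 and 89.2, and Rnf40 read 37.7, 32.9 and 12.7, with the marrow ratio of Rnf40 turning from -1.57 to 1.51 with local background. Fbxl19, a CpG-binding F-box protein, was the gene higher in marrow, reading 5.32, 8.25 and 16.7, and its ratio to spleen Venus+ cells turned from 1.02 to -0.03 with local background.

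Enzymes of cell division were split. Of 15 listed members, 5 were lower and 1 (Fbxw7) higher in spleen Venus+ than in B220+ cells, 5 of 13 lower and 0 higher in marrow Venus+ than in B220+ cells, and 5 of 13 lower and 0 higher in marrow than in spleen Venus+ cells. The shares lower were 33.3%, 38.5% and 38.5%, beside 16.5%, 30.7% and 15.2% of all genes. With normexp 4, 4 and 0 were lower, beside 1174 of 11618, 2142 of 10813 and 315 of 11352 genes on the array. Fbxo5, or EMI1, an inhibitor of the anaphase-promoting complex, read 147, 34.8 and 22.5 (-2.08 ± 0.14 and -2.71 ± 0.15). Ube2t, the E2 enzyme of the Fanconi pathway, read 45.6, 22.9 and 11.3. Trim59 and Usp1 were lower too, as was Fbxl5, whose best known target is an iron regulator, while Ube2c, Ube2s, Fbxw11, Trim37 and Usp44 passed 2-fold in no comparison. The CHR element of cell cycle promoters (TTTGAA, both strands) was in the windows of 4 of the 11 genes with one (Fbxo5, Fbxw5, Trim59 and Ube2c), a share of 36.4% beside 20.2% of all genes. A role in cell division is what placed genes on this list, so that share describes the list and is no result of the arrays.

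Among 23 listed members of NF-kappaB and immune receptor signalling, 6 were lower and 2 higher in spleen Venus+ than in B220+ cells, 10 of 22 lower and 2 higher in marrow Venus+ than in B220+ cells, and 4 of 22 lower and 1 higher in marrow than in spleen Venus+ cells. The shares lower were 26.1%, 45.5% and 18.2%, beside 16.5%, 30.7% and 15.2% of all genes. With normexp 2, 3 and 0 were lower, in marrow against B220+ cells a share of 13.6% beside 19.8% of all genes. Rnf31, the catalytic subunit of the linear ubiquitin chain complex, read 64.9 and 59.9 in the spleen populations and 20.8 in marrow (-1.53 ± 0.14 between the Venus+ populations). Usp21, which acts on the kinase RIPK1, and Usp15, which acts on TGF-beta receptors, read 45.2, 24.3 and 11.4, and 46.9, 21.7 and 15.4. The 2 genes higher in marrow Venus+ than in B220+ cells were Rnf25 and Rnf125. Of the 8 enzymes of ubiquitin-like modifiers, 4, 4 and 2 were lower and none higher; Ube2f and Rnf7, the E2 and RING partners of NEDD8 and cullin 5, stayed within 2-fold at 118, 101 and 99.0, and at 639, 438 and 452.

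Ubiquitin genes outside the 5 families were counted in the same way, beside shares lower of 16.5%, 30.7% and 15.2% over all genes. Of 10 genes for E1 enzymes and ubiquitin-like proteins, 3 were lower in spleen Venus+ cells and 4 in marrow Venus+ cells, each against B220+ cells (30.0% and 40.0%), and none were higher; between marrow and spleen Venus+ cells none passed 2-fold; Nae1 and Sae1, subunits of the enzymes that activate NEDD8 and SUMO, read 372, 109 and 71.1, and 724, 266 and 207, whereas Uba1, the main E1, read 202, 214 and 147. Of 21 core subunits of cullin ligases, 6 and 12 were lower (28.6% and 57.1%) and 1 higher against B220+ cells, and 1 (4.76%) was lower in marrow than in spleen Venus+ cells. Cul2 read 19.7, 3.54 and 3.47, and Cul9 read 22.5, 65.6 and 118. Of the ligases outside the Rnf, Trim and F-box families, 12 of 42 (28.6%) and 22 of 36 (61.1%) were lower against B220+ cells and 12 of 36 (33.3%) in marrow against spleen Venus+ cells, with Herc4 at 925, 198 and 119 and Ubr1 at 38.7, 12.7 and 3.86.

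Of the deubiquitinases of other classes, 6 of 24 (25.0%) were lower in spleen Venus+ and 13 of 24 (54.2%) in marrow Venus+ than in B220+ cells, with 1 and 2 higher, beside 16.5% and 30.7% lower of all genes. Between marrow and spleen Venus+ cells 3 of 24 (12.5%) were lower, beside 15.2% of all genes and 37.8% of the Usp family. The medians were -0.57, -1.09 and -0.42. Over the main processing and the 11 alternatives, 2 to 12, 4 to 17 and 0 to 8 were lower. In marrow against spleen Venus+ cells the median's difference from all genes turned from -0.25 to 0.05 with local background. Zranb1, an OTU enzyme of WNT signalling, read 372, 115 and 41.7 (-1.69 ± 0.14 and -3.16 ± 0.14), and Uchl1 read 54.2, 9.88 and 5.48. Otub2 read 17.8, 47.6 and 129 (1.42 ± 0.15 and 2.86 ± 0.14), and Tnfaip3, the NF-kappaB inhibitor A20, read 40.6, 60.0 and 116. These 2 were higher in marrow Venus+ cells, against the direction of their class.

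**Figure D5:**
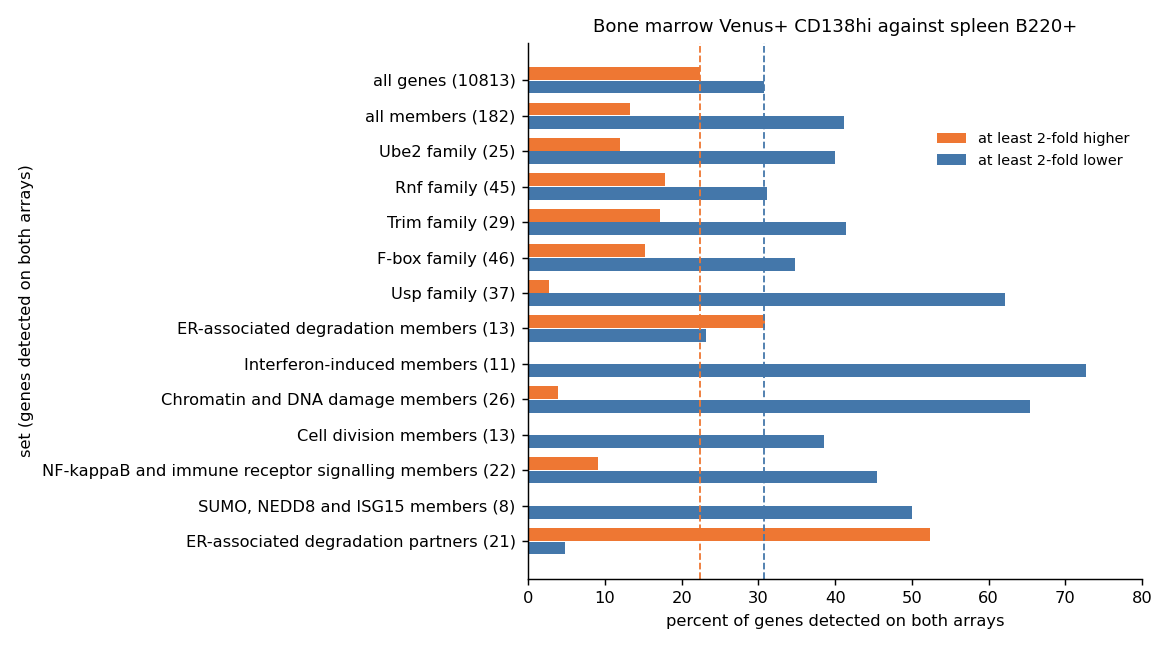
Share of genes detected on both arrays that were at least 2-fold higher (orange) or lower (blue) in marrow Venus+ CD138hi than in B220+ cells, by set, with the number measured in brackets; dashed lines give the shares of all genes, 22.4% and 30.7%. The blue bars of the Usp family (62.2%), chromatin and DNA damage members (65.4%) and interferon-induced members (72.7%) reach furthest right, and the partners of ER-associated degradation are the set with the longest orange bar, 52.4%.

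Many tissue-restricted members were not detected. Of 15 members listed for muscle, testis or erythroid expression, 8 were not detected on any array, beside 3292 of all 16390 genes. Among the 8 were the muscle ligases Trim63 (MuRF1) and Trim54 and the testis genes Usp26, Usp29 and Rnf17. Fbxo32, or atrogin-1, a muscle atrophy ligase, was detected throughout and read 32.3, 8.97 and 4.22 (-1.85 ± 0.20 and -2.93 ± 0.42). Trim55, or MuRF2, read 24.7, 49.4 and 69.9, in the opposite order.

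Between the Venus+ populations themselves, 9 of 185 enzymes were higher in marrow (4.86%, beside 4.33% of all genes). They were Ube2j2, Trim41, Rnf25, Fbxo15, Fbxo10, Fbxo17, Ube2e2, Usp48 and Fbxl19, at log2 ratios from 1.02 to 2.57. Ube2j2, Trim41 and Rnf25 were the 3 that passed 2-fold with normexp as well. The 37 lower in marrow (20.0%, beside 15.2% of all genes) ran down to Usp25 at -2.55. Of this pair of arrays, 19 more were detected on the spleen array alone, beside 6.53% of all genes. A further 2 (Usp2 and Fbxo24) were detected on the marrow array alone, beside 1.06% of all genes. With normexp 3 were at least 2-fold lower in marrow (Kdm2a, Trim25 and Usp34), so the number of lower genes between these populations depends on how background is treated.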

How the data were processed

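RNA from 3 sorted populations was amplified, labelled with Cy5 and hybridised to 1-colour 3D-Gene mouse oligo arrays, 1 array per population, per the labels' protocols. The authors deposited scanner spot intensity files and a table of background-subtracted, globally normalized intensity values; analysis started from the scanner intensities. The mean of the middle 90% of 2736 blank spots (2462 kept) was subtracted, a probe was detected above that mean plus 2 SD, and the median of detected signals was set to 25, which gave the same detection calls as the deposited table, with values differing by at most 4.05%. Log2 ratios were computed for genes detected on both arrays. A gene with several probes took the one whose log2 signals averaged highest across arrays, undetected values being set to the array's lowest detected signal. The precision is limited by the number of arrays, and no test was run.

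Of 23473 probes, 16631 had 1 gene symbol and 6842 none; old symbols were replaced from RefSeq annotation (GRCm38.p6), which also gave the promoter sequences. The members and the gene lists were chosen with earlier results of these data known. Genes named are the 3 highest and 3 lowest per family and comparison, the 5 largest bounds each way, all members of the member lists and the 2 highest and lowest of other lists; Fbxw8, Fbxw13, Fbxw17, Fbxw20, Pan2, Rnf32, Rnf180, Usp12, Usp33, Usp38 and the undetected Trim genes were chosen after their values were seen, as were Derl1 and Derl2. Alternatives were normexp (offset 50; limma 3.58.1, R 4.3.3), local background, the deposited table, scaling on probes detected on all 3 arrays, quantile normalization, a limit of 3 SD, a minimum signal of 10, folds of 1.5 and 3, the mean over probes and, added after the data were seen, background from spots without a probe. Python 3.11.15, numpy 2.4.6, pandas 2.3.3 and matplotlib 3.10.9 were used, and the scripts were tested on simulated data.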

Additional observations from a re-analysis of the deposited data

How the results depend on the processing

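No paired analysis was possible because each population has 1 array, and for the same reason no array could be left out. The deposited table, the limit of 3 SD, the mean over probes and the minimum signal moved no count of members by over 1.5 times. In spleen Venus+ against B220+ cells, normexp gave 3 higher, 29 lower and a median of -0.15, 3-fold gave 12 and 20, and spots without a probe gave 30 lower and a median of 0.04; higher genes made up 33.3% of calls, 9.38% with normexp and 52.4% with spots without a probe. In marrow Venus+ against B220+ cells, normexp gave 8 higher, 43 lower and a median of -0.37, and the median was -0.43 with local background, -0.32 with scaling on shared probes and -0.45 with spots without a probe. In marrow against spleen Venus+ cells, normexp gave 3 higher, 3 lower and a median of -0.17, scaling on shared probes 17 lower and a median of -0.04, 1.5-fold 71 lower, 3-fold 4 and 7, and spots without a probe a median of -0.53; higher genes made up 19.6% of calls and 41.4% with scaling on shared probes. Signs under alternatives were read for the named members alone, which are 57, 65 and 37 of the called ones in the 3 comparisons. Those that turned in the first comparison were Fbxo43 with normexp (0.01) and, with local background, Rnf130 (1.79), Rnf185 (-0.13) and Usp5 (-0.59). In the second they were Rnf130 (1.66), Rnf166 (0.08), Rnf40 (1.51), Trim3 (-0.03) and Usp11 (0.42) with local background, and Usp11 (0.12) with normexp. In the third they were Fbxl19 (-0.03), Fbxo15 (-1.02), Ube2e2 (-0.80) and Usp11 (0.30) with local background. Normexp took 31 of 57, 28 of 65 and 31 of 37 named called members under 2-fold. Its offset pulls ratios of dim probes toward 0 by construction; the cause of the other changes was not tested. The local background followed spot brightness, with a median of 35.3, 34.5 and 37.3 around blank spots and 750, 403 and 374 around the brightest 10% of detected spots.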

Other observations

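The lowest detected signal was highest on the marrow Venus+ array, which also detected the fewest members. It was 1.34 on the B220+ array, 1.74 on the spleen Venus+ array and 2.35 on the marrow Venus+ array. Of the 236 members, 23 were detected in B220+ but not in marrow Venus+ cells and 5 the other way round, beside 8.25% and 4.34% of all genes. The part of the detection limit in these counts was not tested. Of the 6 members read by several probes, 4 had a second probe that was detected on more than 1 array. Those of Trim8 gave log2 ratios of -0.11 and -0.84 in marrow Venus+ against B220+ cells and of opposite sign, 0.23 and -0.21, between marrow and spleen Venus+ cells; those of Rnf170 and Ube2f differed by less than 1 in each comparison, and in Trim34a the second probe alone was called lower in the spleen.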
